A study of Triticum aestivum with 24 samples.

Results

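The wheat miRNA families miR9664, miR9669 and miR9670 were represented by 7 of the 202 annotated tags, chosen by the family number in the tag's name. A tag is a distinct small RNA sequence, and its count is the number of reads with exactly that sequence. Family miR9664 had 1 tag, miR9669 had 3 and miR9670 had 3. Together they held 47007 of the 3421194 miRNA reads, a mean of 1.41% ± 0.288 of the miRNA reads of a library (SD, n = 24 libraries). Leaves of *Triticum aestivum* cv Chinese Spring, all grown from the seed of 1 selfed plant, came from heat-stressed plants, kept at 37 °C for 5 days from the boot stage and then returned to the cabinet, and from control plants, kept throughout at 18 °C in 16 h of light and 16 °C in 8 h of darkness. Both were sampled when the stress ended (0 DAT, days after treatment) and at 1 and 4 DAT, with 4 libraries for each treatment and day and pooled RNA of 18 plants in each library. The 72 plants of a treatment were sampled on every day, so the days of a treatment share their plants. Library totals ran from 58501 to 300261 miRNA reads, with medians at 0 DAT of 80557 in heat and 142238 in control, and 193 to 202 tags were detected per library. The table holds miRNA tags alone, so the leaf label was not checked against marker genes.

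Plant miRNAs are cut from hairpin precursors by Dicer-like enzymes and loaded into Argonaute proteins, where they guide cleavage or translational repression of mRNAs with near-perfect complementarity. A hairpin can give several overlapping products, called isomiRs, and the strand opposite the mature miRNA gives the star sequence. Families miR9664, miR9669 and miR9670 are known from wheat and its relatives and lack counterparts among the miRNA families that all land plants share. In plants, miRNAs of 22 nt are known for starting the production of secondary small interfering RNAs from the transcripts they cut.

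The 7 sequences show how the isomiRs of a family relate to each other. They are written as DNA, 5′ to 3′, with the seed (bases 2 to 8) in capitals.
miR9664-1-5p: aCGGCATAgaggcactgcaaa
miR9669-1.1-5p: tACTGTGGgcacttatttgaca
miR9669-1.2-5p: tACTGTGGgcacttatttgac
miR9669-1.3-5p: tTTCCATActgtgggcactta
miR9670-1-5p: aCCTGAACgtcttcttcaagt
miR9670-2.1-5p: tTCTTCAAgtactccactttt
miR9670-2.2-5p: tGAACGTCttcttcaagtact
Only miR9669-1.1-5p and miR9669-1.2-5p share a seed. They start at the same base and differ by the last base, which makes the first of them the only member of 22 nt, while the other 6 are of 21 nt. The third tag of the family, miR9669-1.3-5p, starts 6 bases upstream of both and shares 15 bases with them. In family miR9670, miR9670-2.2-5p starts 3 bases and miR9670-2.1-5p 11 bases downstream of miR9670-1-5p, so each has a seed of its own. No tag of another family of the table has one of these seeds at its bases 2 to 8.

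The precursors are shown because they place these tags on one arm of the hairpin. They are those of the study in IWGSC RefSeq v1.0, written 5′ to 3′ on their own strand with the bases covered by the 7 tags in capitals. What genes lie at these loci was not looked up, for want of an annotation of that build.
miR9664-1, chr1A:309399472-309399588, minus strand: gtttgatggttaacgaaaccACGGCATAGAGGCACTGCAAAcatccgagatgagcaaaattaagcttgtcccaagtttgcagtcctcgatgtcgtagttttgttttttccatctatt
miR9669-1, chr3D:544447484-544447592, minus strand: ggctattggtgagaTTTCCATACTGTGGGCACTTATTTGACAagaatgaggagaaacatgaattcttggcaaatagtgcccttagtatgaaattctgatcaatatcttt
miR9670-1, chr6A:112588697-112588796, minus strand: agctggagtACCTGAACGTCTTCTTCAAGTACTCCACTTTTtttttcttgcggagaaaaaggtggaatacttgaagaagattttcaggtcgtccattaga
miR9670-2, chr6D:95858605-95858703, plus strand: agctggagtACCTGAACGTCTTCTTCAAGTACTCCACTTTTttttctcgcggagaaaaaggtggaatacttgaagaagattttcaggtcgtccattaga
All 7 tags lie on the 5p arm, and no tag of the table lies on the 3p arm of these 4 precursors. The 3 tags of miR9670 match both the 6A and the 6D precursor without mismatch, at bases 10 to 30, 13 to 33 and 21 to 41 of each, so their reads cannot be assigned to either locus. On chromosome 6D, the precursor of miR9670-2 starts 28 bases after the end of the precursor of miR9662-1, on the same strand. In the hairpins folded with RNAfold from these sequences, 17 to 20 bases of each tag were paired, with a minimum free energy of -44.2 kcal/mol for miR9669-1, -52.0 for miR9664-1 and -56.6 for both miR9670 precursors.

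**Figure D1:**
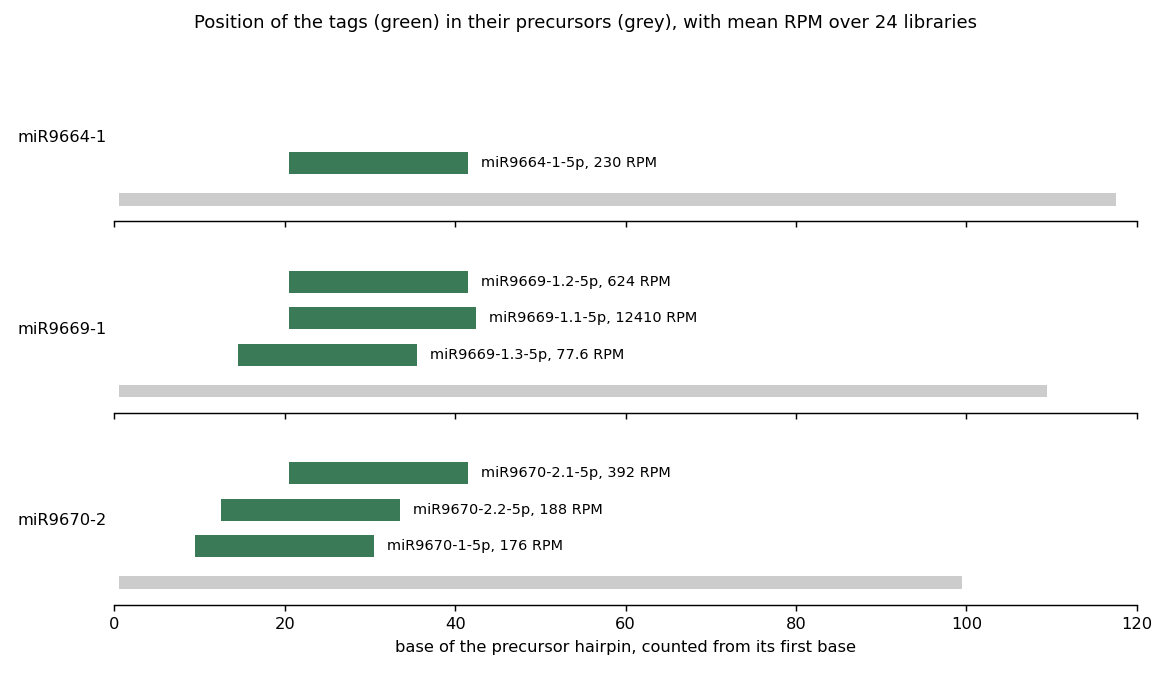
Each green bar is a tag, placed by its first and last base on its precursor (grey), counted in bases from the precursor's first base, with the tag's mean level over the 24 libraries in RPM, reads per 1000000 miRNA reads. The tags of miR9669-1 and of miR9670-2 overlap at shifted starts. The most abundant of each precursor starts at base 21, as miR9664-1-5p does, a number that depends on where the study's precursor sequence begins.

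Target sites from the study's degradome (sequenced ends of cleaved mRNAs) were at hand for miR9670-2.1-5p, in 5 transcripts, and for none of the other 6 tags. They are shown because they give the pairing of the most abundant miR9670 tag. All 5 transcripts are annotated as mitochondrial transcription termination factor-like, a family of nuclear-encoded proteins that act in gene expression of mitochondria and chloroplasts. The site is written 5′ to 3′ with the bases that do not pair with the miRNA in capitals.
4 transcripts, TraesCS6B01G076600.1, TraesCS6B01G076700.1, TraesCS6B01G090000.1 and TraesCS1B01G399400.1: CaaagtggagCacttgaagaa
1 transcript, TraesCS6D01G023400.1: CCaagtggagCacttgaagaa
Of the 21 bases of miR9670-2.1-5p, 19 pair with the first site, with mismatches at bases 11 and 21 counted from the 5′ end of the miRNA, and 18 pair with the second, which has a further mismatch at base 20. The whole seed pairs in both. In miR9670-1-5p and miR9670-2.2-5p the seed covers other bases of the precursor.

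The members differed widely in level. Levels are given as RPM, reads per 1000000 miRNA reads, with TMM factors that set the libraries to the same level for the bulk of the tags. The 22-nt tag miR9669-1.1-5p averaged 12410 RPM over the 24 libraries, rank 9 of 202, and its 21-nt form miR9669-1.2-5p averaged 624 RPM. The other means were 392.4 RPM for miR9670-2.1-5p, 229.9 RPM for miR9664-1-5p, 188 RPM for miR9670-2.2-5p, 176 RPM for miR9670-1-5p and 77.6 RPM for miR9669-1.3-5p. Each of the 7 was detected in 24 of 24 libraries, but the depth behind them was unequal, with 690 to 3230 reads per library for miR9669-1.1-5p, 8 to 112 for miR9664-1-5p and 3 to 20 for miR9669-1.3-5p. As a share of all miRNA reads, miR9669 held 1.32% ± 0.285 and ranked 7 of the 37 families, miR9670 held 0.0759% ± 0.0143 and ranked 24, and miR9664 held 0.0222% ± 0.00895 and ranked 31 (SD, n = 24).

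Among all tags of the table, miR9669-1.1-5p was one of the steadiest over the 24 libraries. Its RPM ranged from 9297 to 17850, a 1.92-fold range, and its coefficient of variation (CV, SD over mean) of 19.6% ranked 5 from the lowest of 202 tags, whose median was 41.0%. The CV of a tag falls with its depth, and among the 27 tags of at least 1000 RPM miR9669-1.1-5p ranked 4. Both lower tags of miR9670 were also in the steadier part, with CVs of 27.5% for miR9670-2.2-5p (rank 23) and 28.2% for miR9670-1-5p (rank 30). The most variable member was miR9664-1-5p, with a CV of 46.1% (rank 124) and a 7.14-fold range from 64.8 to 463 RPM. For miR9669-1.3-5p the CV of 33.5% was close to the 32.8% that counting error alone gives at its depth, whereas counting error gives 18.5% for miR9664-1-5p and 2.64% for miR9669-1.1-5p. The counting values are approximate, because they set counting error at library totals without TMM factors against the TMM-scaled mean.

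**Figure D2:**
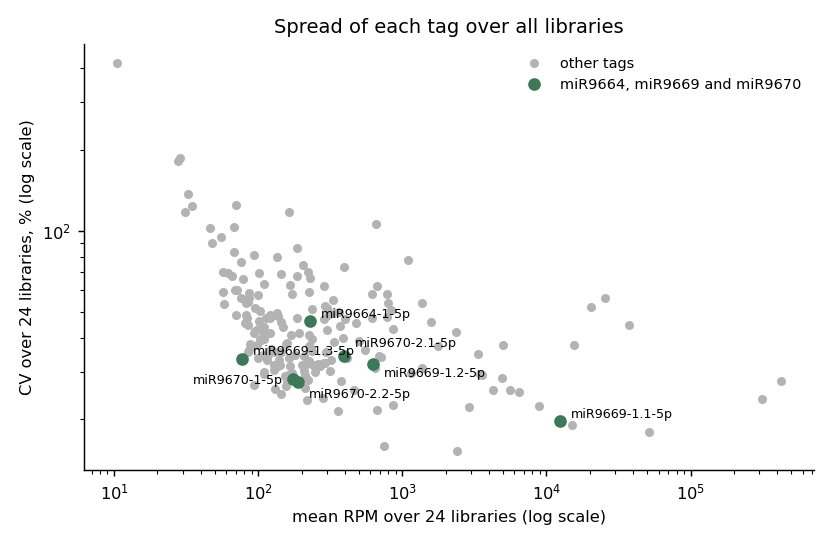
Each point is a tag, with its mean RPM over the 24 libraries on the horizontal axis and its CV in percent on the vertical axis, both logarithmic, and the 7 members in green. The member miR9669-1.1-5p sits near the lower edge at 12410 RPM and 19.6%, while miR9664-1-5p at 46.1% lies above the median of all tags, 41.0%.

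The first question was whether heat changed the level of these miRNAs on any of the days. By edgeR's quasi-likelihood test over all 202 tags (threshold FDR < 0.05), 0 of the 7 members passed at 0 DAT, where 17.3% of all tags did. At 1 DAT 0 of 7 passed, against 11.4% of all tags, and at 4 DAT 0 of 7, against 0% of all tags (26 at an unadjusted p under 0.05). With the 3 days tested together 0 of 7 passed, against 22.3% of all tags. At an unadjusted p under 0.05 the members numbered 1 at 0 DAT, miR9670-1-5p, and 0 at 1 DAT, at 4 DAT and over the 3 days together. DESeq2 and edgeR's likelihood ratio test also called 0 of 7 in each of these comparisons. The median log2 fold change of the members, heat over control, was 0.20 at 0 DAT, 0.20 at 1 DAT and 0.18 at 4 DAT, beside medians of all tags of -0.04, -0.12 and -0.06. At 4 DAT 6 of the 7 fold changes were above 0, but only 2 of 7 when scaled by library totals without TMM, which moved the median of all tags to -0.24. The background share depends on single libraries and on the scaling. At 0 DAT the 35 tags called, 18 higher and 17 lower in heat, became 22 without heat replicate 3 and 17 higher and 7 lower with library totals. At 1 DAT the 23 called, 13 higher and 10 lower, became 1 without control replicate 2, 6 without control replicate 3, 12 to 13 without heat replicate 1, 3 or 4, 13 higher and 6 lower with RLE factors, and 5 higher and 0 lower with library totals.

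**Figure D3:**
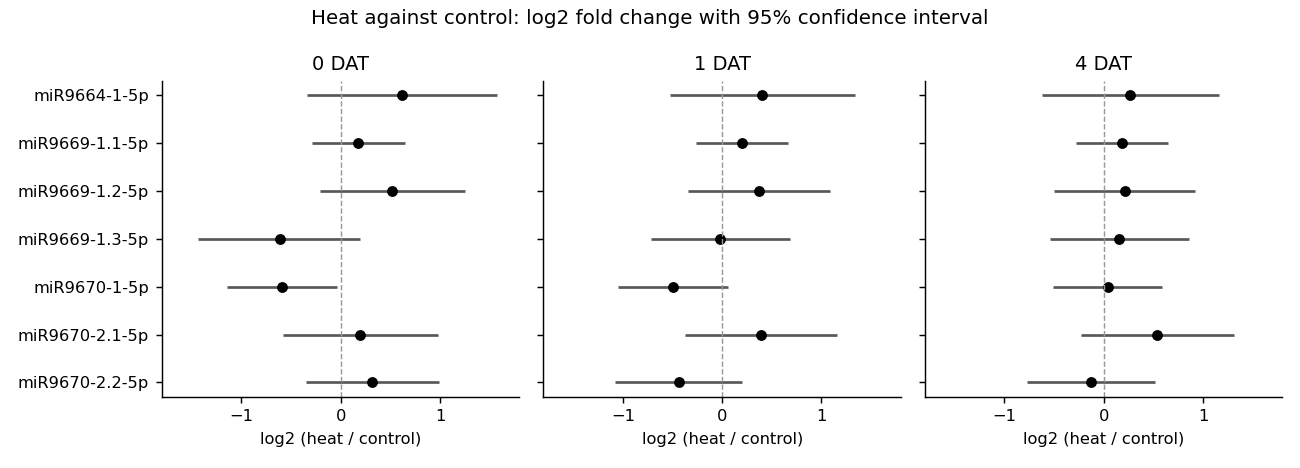
For each member (rows) and day (panels), the point is the log2 fold change of heat over control from edgeR and the bar its 95% confidence interval, with the dashed line at 0. Of the 21 intervals only that of miR9670-1-5p at 0 DAT, from -1.15 to -0.03, leaves out 0.

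Family miR9669 was carried by its 22-nt tag. At 0 DAT, miR9669-1.1-5p had 11550, 12860, 11180 and 14760 RPM in heat, against 12660, 9368, 12900 and 9536 RPM in control. The groups overlapped, with the highest value in heat replicate 4 and the lowest in control replicate 2, and the log2 fold change was 0.18 (95% confidence interval -0.29 to 0.65). At 1 DAT it had 17850, 10050, 15630 and 11670 RPM in heat, against 16400, 9297, 11010 and 11360 RPM in control, and replicate 1 was the highest library of both treatments. At 4 DAT the values were 12190, 17330, 11930 and 11630 RPM in heat, against 9489, 12550, 13350 and 11350 RPM in control. After TMM scaling, heat replicate 2 stood above the other 7 libraries of that day. Without TMM, the family held 1.076% to 1.225% of miRNA reads in heat on that day and 0.9923% to 1.313% in control. The log2 fold change was 0.20 (-0.27 to 0.66) at 1 DAT and 0.18 (-0.28 to 0.65) at 4 DAT, and -0.03 at 4 DAT with library totals. The intervals of the 3 days reach from a fold of 0.820 to 1.58 with this spread between libraries.

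The 21-nt form miR9669-1.2-5p had 820, 762, 619 and 709.8 RPM in heat at 0 DAT, against 547, 422, 814 and 275 RPM in control. All 4 heat libraries lay within a narrow band that control replicate 3 also reached, while the other control libraries were lower, and the log2 fold change was 0.52 (-0.21 to 1.25). At 1 DAT it was 0.38 (-0.34 to 1.09), with 456 to 926 RPM in heat and 302 to 779 RPM in control, and at 4 DAT 0.21 (-0.50 to 0.92), or -0.02 with library totals, with 436 to 967 RPM in heat and 417 to 822 RPM in control.

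The upstream isomiR miR9669-1.3-5p had 50.2, 36.3, 59.6 and 43.7 RPM in heat at 0 DAT, against 93.4, 76.7, 75.4 and 50.5 RPM in control. These values rest on 3 to 8 reads per heat library and 5 to 14 per control library. Control replicate 4 fell among the heat libraries and the other 3 lay above them, and the log2 fold change was -0.61 (-1.44 to 0.20, edgeR, FDR = 0.341). The corresponding values were -0.02 (-0.72 to 0.68) at 1 DAT, with 53.1 to 140.7 RPM in heat and 79.4 to 96.7 RPM in control, and 0.16 (-0.54 to 0.86) at 4 DAT, with 67.1 to 134.5 RPM in heat and 61.4 to 99.7 RPM in control. At 1 DAT the sign turned with RLE factors, with DESeq2 and within the 8 libraries of that day, and at 4 DAT with library totals. Summed over the family, miR9669 had a log2 fold change of 0.36 (-0.08 to 0.79), 0.21 (-0.23 to 0.64) and 0.25 (-0.19 to 0.68) at 0, 1 and 4 DAT, in a fit of the 37 family sums with scaling factors of its own, and -0.03 at 4 DAT with library totals.

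Relative to its mean, the tag of miR9664 varied most of the members over all libraries, but not within every group. Its SD was 180 RPM at a mean of 259 RPM in control at 4 DAT. In heat at 1 DAT the SD was 37.9 RPM at a mean of 219 RPM. At 0 DAT, miR9664-1-5p had 351, 99.8, 373 and 197 RPM in heat, against 127, 121, 181 and 230.1 RPM in control. Heat replicates 1 and 3 were the highest of the day and heat replicate 2 the lowest, so the heat libraries enclosed all those of control, and the log2 fold change was 0.62 (-0.33 to 1.58), or 0.33 without heat replicate 3. At 1 DAT it had 250.5, 231, 164 and 232 RPM in heat, against 236, 119, 78.3 and 218 RPM in control. At 4 DAT it had 348, 356, 326 and 244 RPM in heat, against 159.6, 348, 463 and 64.8 RPM in control, so that on this day the control libraries enclosed all those of heat. The log2 fold change was 0.40 (-0.52 to 1.34) at 1 DAT and 0.27 (-0.62 to 1.16) at 4 DAT, where it was between -0.07 and 0.76 with 1 library left out. These intervals allow from a 0.650-fold to a 2.99-fold level in heat.

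Of the miR9670 tags, miR9670-1-5p had the smallest unadjusted p between heat and control. It had 167, 127, 231 and 131.0 RPM in heat at 0 DAT, against 247, 249, 241 and 258 RPM in control. Every heat library was below every control library, as for 12.4% of all tags on that day, and the control libraries had an SD of 7.07 RPM against 48.2 RPM in heat. These values rest on 10 to 31 reads per heat library and 16 to 46 per control library. Counting error alone gives this tag a CV of 22.6% over the 24 libraries, more than these control libraries showed, so their narrow spread is no measure of reproducibility. The log2 fold change was -0.59 (-1.15 to -0.03, edgeR, FDR = 0.149), which did not pass the threshold. At 1 DAT it had 91.1, 204.6, 109 and 119.9 RPM in heat, against 154, 230.2, 215 and 161 RPM in control, so that 3 heat libraries were below every control library and heat replicate 2 was not (-0.49, -1.05 to 0.06, edgeR, FDR = 0.288). Same-numbered libraries deviated together on that day. Within these pairs miR9670-1-5p and miR9670-2.2-5p were lower in heat in 4 of 4, as 15.3% of all tags were. In 4 of 4 pairs miR9664-1-5p and miR9669-1.1-5p were higher in heat, as 14.4% of all tags were. With the replicate number as a block, whose effect all days and both treatments shared, 0 of 7 members passed. A fit of this day's pairs alone was not run. At 4 DAT the values were 150.3, 144, 163 and 192 RPM in heat, against 123, 158, 149 and 199 RPM in control, fully overlapping, with a log2 fold change of 0.04 (-0.51 to 0.59), or -0.15 with library totals. Tested over the 3 days together, its FDR was 0.194 by edgeR, and it passed only without heat replicate 2 of 1 DAT (FDR = 0.0447, over a range of 0.0447 to 0.561 in 30 alternatives). The change of its heat effect between 0 and 4 DAT was 0.63 on the log2 scale (-0.15 to 1.41, edgeR, FDR = 0.593).

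The other tags that match the same hairpins differed from miR9670-1-5p in the sign of the estimate at 0 DAT. At 0 DAT, miR9670-2.1-5p, the tag with the target sites above, had 569, 218, 566.5 and 349.5 RPM in heat, against 500.2, 281, 211 and 460.2 RPM in control, in overlapping groups (log2 fold change 0.20, -0.58 to 0.98). At 1 DAT it had 463, 311, 578 and 456 RPM in heat, against 433, 183, 157 and 588 RPM in control (0.39, -0.37 to 1.16). At 4 DAT it had 530.2, 424, 489 and 387 RPM in heat, against 380.5, 282, 380.2 and 219 RPM in control. Every heat library was then above every control library, as for 2.97% of all tags, but the lowest in heat (387 RPM) and the highest in control (380.5 RPM) nearly met, and the log2 fold change of 0.54 (-0.23 to 1.31, edgeR, FDR = 0.493) did not pass the threshold. For miR9670-2.2-5p the log2 fold changes were 0.32 (-0.35 to 0.99), -0.44 (-1.08 to 0.20) and -0.13 (-0.77 to 0.51) at 0, 1 and 4 DAT, with 127 to 240.3 RPM in heat and 121 to 249 RPM in control at 0 DAT. Summed, miR9670 had a log2 fold change of 0.15 (-0.29 to 0.58), -0.03 (-0.47 to 0.40) and 0.31 (-0.12 to 0.75) on the 3 days, the second of which became 0.03 with library totals. Of the family sums, 0 of these 3 families passed on any day, against 2.7% of the 37 families at 0 DAT, 5.41% at 1 DAT and 5.41% at 4 DAT (edgeR), and 0 had an unadjusted p under 0.05. The 1 family called at 0 DAT became 2 without control replicate 3 and 3 without heat replicate 1 of that day, the 2 at 1 DAT became 0 to 4 and the 2 at 4 DAT became 0 to 2 with 1 library left out.

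**Figure D4:**
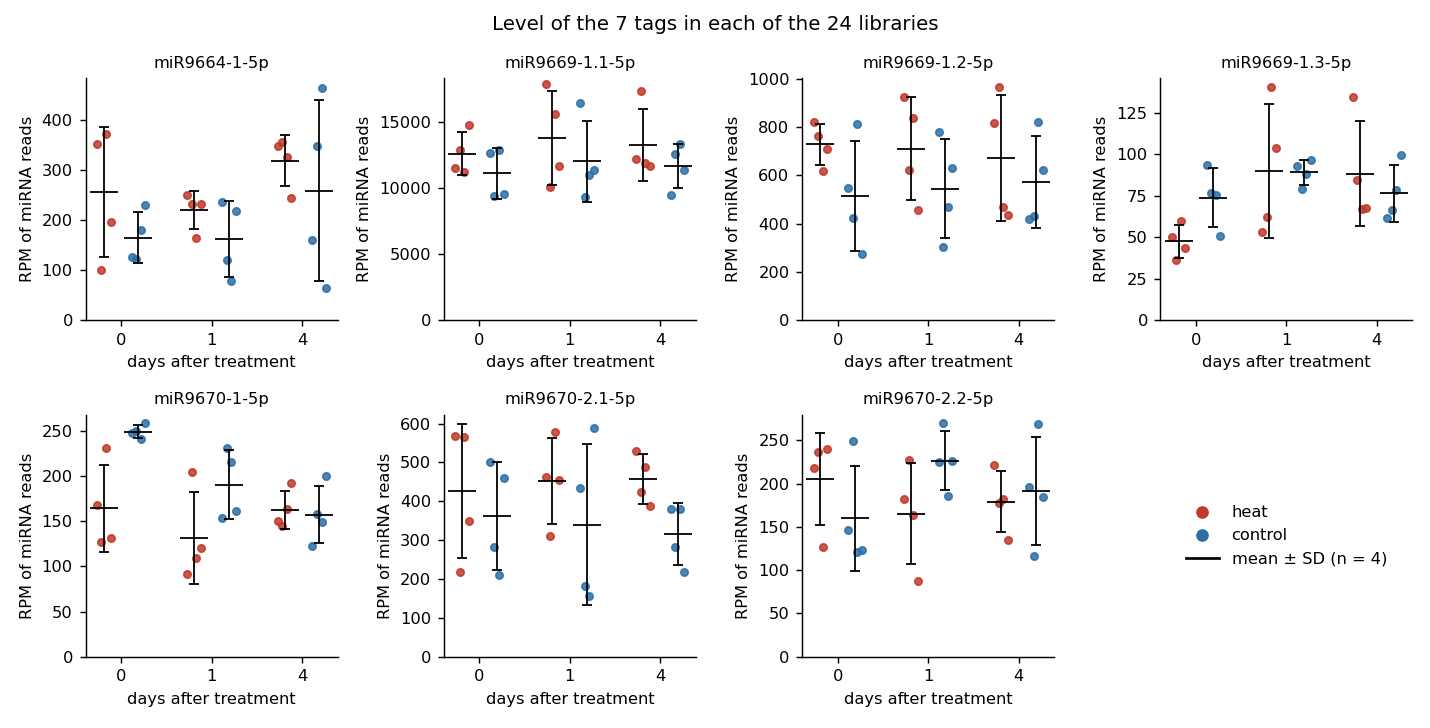
Each panel is a member, each point the RPM of a library (vertical axis, from 0) in heat (red) or control (blue) at 0, 1 and 4 DAT, and the bars are the mean ± SD of 4 libraries. Heat and control are separated for miR9670-1-5p at 0 DAT, with 127 to 231 RPM in heat and 241 to 258 RPM in control, and barely for miR9670-2.1-5p at 4 DAT.

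Ordered by their means, most of the 6 groups could not be separated from the next one. For miR9669-1.1-5p the order ran from 13800 ± 3577 RPM in heat at 1 DAT to 11120 ± 1926 RPM in control at 0 DAT (SD, n = 4 each), a ratio of 1.24, and each of the 5 steps between neighbours was smaller than the larger SD of the neighbours. For miR9669-1.2-5p the highest group, 728 ± 85.5 RPM in heat at 0 DAT, was 1.42-fold above the lowest, 514 ± 229 RPM in control at 0 DAT, and for miR9670-2.1-5p the highest, 457.5 ± 64.2 RPM in heat at 4 DAT, was 1.45-fold above control at 4 DAT. A step larger than the SD occurred once each for miR9664-1-5p, miR9669-1.3-5p and miR9670-1-5p. For miR9670-1-5p it separated control at 0 DAT, the highest group at 249 ± 7.07 RPM, from the next group, 190.1 ± 38.3 RPM in control at 1 DAT. With 16 to 46 reads per library, the SD of 7.07 RPM lay below counting error. For miR9669-1.3-5p the step lay between heat at 0 DAT, the lowest group at 47.5 ± 9.90 RPM, and control at 0 DAT at 74.0 ± 17.7 RPM, although their ranges overlapped.

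The second question was how the levels moved over the days of recovery. Between 0 and 1 DAT in heat 0 of 7 members passed, against 1.98% of all tags (edgeR), and between 0 and 4 DAT 0 of 7, against 5.45%. The 4 tags behind the first share became 2 without heat replicate 2 or 4 of 0 DAT or heat replicate 4 of 1 DAT, and 7 without heat replicate 2 of 4 DAT, and the 11 behind the second became 18 without control replicate 3 of 1 DAT. In control the counts were 0 of 7 against 0% of all tags for both days, with 9 and 7 tags at an unadjusted p under 0.05. DESeq2 and edgeR's likelihood ratio test called 0 of 7 in each. Of the members, miR9669-1.3-5p had an unadjusted p under 0.05 in heat, with log2 fold changes of 0.88 (0.10 to 1.68, edgeR, FDR = 0.374) at 1 DAT and 0.86 (0.08 to 1.67, edgeR, FDR = 0.189) at 4 DAT over 0 DAT, and 0.45 at 4 DAT with library totals. It was higher than at 0 DAT in 4 of 4 heat pools of plants on both days, and in 3 of 4 and 2 of 4 control pools, although same-numbered heat libraries of 0 and 4 DAT did not deviate together (r above 0.1 in 0 of 4 pairs). These comparisons share the 4 heat libraries of 0 DAT, in which the tag had 3 to 8 reads. The share of all tags that moved the same way in 4 of 4 pools was not counted. Of the other members, miR9670-2.2-5p was higher and miR9670-1-5p lower at 1 DAT than at 0 DAT in 4 of 4 control pools. Without that share of all tags, the agreement of pools cannot be read as a result about these members. In control, miR9670-1-5p also had an unadjusted p under 0.05, with a log2 fold change of -0.64 at 4 DAT (-1.19 to -0.11, edgeR, FDR = 1.00), being lower in 4 of 4 control pools and in 2 of 4 heat pools. Same-numbered control libraries of 0 and 4 DAT had r of -0.37 to 0.15, above 0.1 in 2 of 4 pairs. For the change of the heat effect between days, 0 of 7 members passed from 0 to 1 DAT, against 2.48% of all tags, and 0 of 7 from 0 to 4 DAT, against 0.99% (edgeR, with 0 members at an unadjusted p under 0.05). With the plant pool as a block these were 0 of 7 members as well, while the tags called in all were 1 in place of 5 and 1 in place of 2.

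The shares of the isomiRs within a family do not depend on the scaling of the libraries. In miR9669, miR9669-1.1-5p held 94.7% ± 1.02 of the family's reads, miR9669-1.2-5p 4.69% ± 1.02 and miR9669-1.3-5p 0.606% ± 0.200 (SD, n = 24), and this order held in 24 of 24 libraries. The 22-nt form exceeded the 21-nt form by a geometric mean of 20.5-fold, with 13.9-fold and 34.3-fold as the extremes. Family miR9670 was less uniform. There, miR9670-2.1-5p held 50.7% ± 11.9, miR9670-2.2-5p 25.4% ± 7.69 and miR9670-1-5p 23.9% ± 8.08 of the reads. The first exceeded each of the others in 21 of 24 libraries, and miR9670-2.2-5p exceeded miR9670-1-5p in 14 of 24.

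Heat and control were compared for 3 of these shares on each day, in 9 exact two-sided permutation tests of 4 libraries against 4, which cannot give a p below 0.0286. The share of miR9669-1.3-5p in miR9669 at 0 DAT was 0.404%, 0.266%, 0.503% and 0.281% in heat, against 0.702%, 0.777%, 0.546% and 0.512% in control. Every heat library was below every control library, but the groups nearly met. The nearest were heat replicate 3, with 8 reads of the tag, and control replicate 4, with 9 reads. The means were 0.364% ± 0.112 in heat and 0.634% ± 0.126 in control (exact permutation test, p = 0.0286, and 0.257 adjusted over the 9 tests). The difference did not pass the adjusted threshold, but a single share at the smallest possible p cannot pass it over 9 tests. The adjusted test therefore could not decide on this share. At 1 DAT the share was 0.640% ± 0.270 in heat, against 0.730% ± 0.129 in control (exact p = 0.714). At 4 DAT heat averaged 0.645% ± 0.256, against 0.625% ± 0.141 for control (exact p = 0.886), with the opposite sign as a log2 ratio. The 21-nt form made up 5.51% ± 0.854 of the reads of miR9669-1.1-5p and miR9669-1.2-5p in heat at 0 DAT and 4.30% ± 1.28 in control (exact p = 0.200, adjusted p = 0.45). On the later days the groups overlapped as well, with 4.90% in heat and 4.25% in control at 1 DAT and 4.74% in heat and 4.63% in control at 4 DAT.

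The share of miR9670-2.1-5p in miR9670 was higher on average in heat on all 3 days, without passing the test. At 0 DAT it averaged 51.7% ± 11.1 in heat, against 45.9% ± 10.9 in control (exact p = 0.486), and at 1 DAT 60.3% ± 12.6 in heat, against 42.1% ± 17.2 in control (exact p = 0.171). This test ignores the pairing at 1 DAT. Replicates 1 to 4 had 62.9%, 41.9%, 67.9% and 68.7% in heat on that day, against 53.4%, 26.7%, 28.1% and 60.3% in control, so heat was higher in every pair. Sign flips within 4 pairs cannot give a p below 0.125, so they could not decide on this share. At 4 DAT the heat libraries had 58.8%, 56.8%, 58.6% and 54.2%, against 54.4%, 50.7%, 47.7% and 36.4% in control, a difference of 9.81 percentage points (exact p = 0.0571, adjusted p = 0.257). The highest control library just exceeded the lowest of heat. The share of miR9670-1-5p, chosen after its values were seen and not tested, was 17.5%, 21.9%, 25.0% and 18.2% in heat at 0 DAT, against 27.6%, 32.0%, 42.1% and 30.7% in control.

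**Figure D5:**
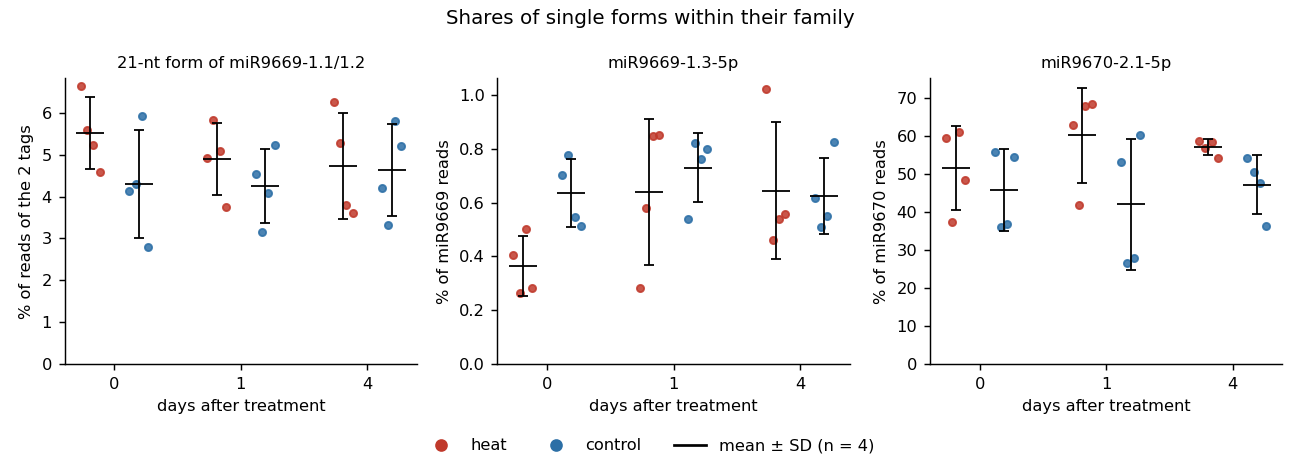
Points are libraries, in heat (red) and control (blue) at 0, 1 and 4 DAT, and bars are the mean ± SD of 4 libraries. The vertical axes, from 0, give the percent of the 21-nt form in the reads of miR9669-1.1-5p and miR9669-1.2-5p, of miR9669-1.3-5p in miR9669 and of miR9670-2.1-5p in miR9670. Only miR9669-1.3-5p at 0 DAT has groups that do not overlap, at 0.266% to 0.503% in heat and 0.512% to 0.777% in control. They nearly meet, at 8 reads of the tag in heat replicate 3 and 9 in control replicate 4.

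Of the other families with neighbouring numbers, miR9662 and miR9772, 15 tags were measured. At 0 DAT 4 of them were higher in heat (miR9662-1.6-3p, miR9772-5-5p, miR9772-2.1-5p and miR9772-2.2-5p), 3 were lower (miR9662-1.3-5p, miR9662-2.8-5p and miR9772-6-5p) and 8 did not pass, beside 17.3% of all tags. At 1 DAT 2 were higher (miR9662-1.6-3p and miR9772-5-5p), 0 lower and 13 did not pass, beside 11.4% of all tags, and at 4 DAT 0 of 15 passed, beside 0% of all tags. The median log2 fold change of the 15 was 0.21, 0.01 and 0.15 on the 3 days.

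Across the 24 libraries, which share plants between days, log2 RPM values were compared as a description. Within miR9669, the 22-nt and 21-nt forms had a Pearson r of 0.77, whereas miR9669-1.3-5p had an r of 0.11 with each of them. The 3 tags of miR9670, which match the same hairpins, had r values of -0.32 to -0.10 with each other. Counting error alone gives a CV of 22.6% for miR9670-1-5p and 21.9% for miR9670-2.2-5p, whose CVs were 28.2% and 27.5%. Of the tags of other families, those most like miR9669-1.1-5p were miR396-1-3p (0.61), miR1120-1193-3p (0.61) and miR319g-1 (0.55). For miR9664-1-5p they were miR156-4-5p (0.68), miR156-1.1-5p (0.68) and miR1318b-1 (0.66), and for miR9670-2.1-5p they were miR1137-383-5p (0.79), miR1137-217-3p (0.67) and miR156-1.1-5p (0.66). All these values come from the same library totals, and most tags named here rest on few reads per library.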

How the data were processed

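Small RNA was sequenced from 24 wheat leaf libraries. The authors made TruSeq libraries, sequenced each in several MiSeq runs, checked reads with FastQC, placed tags on precursors found in IWGSC RefSeq v1.0 (Bowtie2) and deposited raw read counts per annotated tag, without normalization. Tool versions: not given in the sources used here. Names and precursor sequences were matched by sequence to the study's supplementary lists, and hairpins were folded with RNAfold 2.7.2. Members and lists were chosen with earlier results of these data known. All 7 members are named, together with the 3 tags of other families most correlated with the leading tag of each family and the called tags of miR9662 and miR9772.

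RPM is the count per 1000000 miRNA reads after TMM scaling (factors 0.666 to 1.43). All 202 tags entered, unfiltered, a fit of 6 groups with edgeR 4.0.16 (R 4.3.3, glmQLFit and glmQLFTest), with Benjamini-Hochberg adjustment and a threshold of 0.05. Intervals are 95% and come from this fit. Family sums were fitted separately, and shares were compared with exact permutation tests (scipy 1.17.1). Alternatives were RLE factors, library totals, DESeq2 1.42.0, edgeR's likelihood ratio test, a mean count of at least 20, the libraries of 1 day, a block, and each library left out. The code was tested on simulated data. Totals of 58501 to 300261 reads leave 6 members with medians of 10 to 80 reads per library. The libraries of a group came from separate plant pools, whose spread the intervals include. Without molecular identifiers reads are not separate molecules, and the CVs given for counting cover counting error only. They take that error at library totals without TMM factors and are approximate.

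Replicate numbers 1 to 4 recur in every group. Within a treatment a number was taken to mark the same plants by the study's methods. Between days of a treatment, deviations of same-numbered libraries from the group means over 122 tags correlated with r of -0.16 to 0.40 (1 and 0 DAT) and -0.24 to 0.06 (4 and 0 DAT) in heat, and -0.0021 to 0.44 and -0.37 to 0.15 in control. Between heat and control, r was 0.24 to 0.57 at 1 DAT, above 0.1 in 4 of 4 pairs, so that they count as paired on that day (the fit above has no block), and -0.12 to 0.26 at 0 DAT and -0.17 to 0.54 at 4 DAT.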

Additional observations from a re-analysis of the deposited data

Results flagged for a closer look

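Of 78 groups of 4 libraries examined, 2 had a single library far from the others, where chance gives about 1 in 20. The level of miR9669-1.1-5p in heat replicate 2 at 4 DAT was 17330 RPM, while the other heat libraries of that day had 11630 to 12190 RPM. This library had the lowest TMM factor of the series, 0.666. Without TMM, family miR9669 held 1.076% to 1.225% of miRNA reads in the heat libraries of that day. The share of miR9669-1.3-5p in the reads of miR9669 was 1.02% in heat replicate 1 at 4 DAT, while the others had 0.461% to 0.557%.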

How the results depend on the processing

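Depth limits miR9669-1.3-5p, which rests on 3 to 20 reads per library, whereas miR9669-1.1-5p and miR9664-1-5p spread more than counting error gives. Of 390 alternative counts over the 13 comparisons of tags or family sums, 389 gave 0 members called. The exception was the test over the 3 days together, which gave 0 to 1 with a library left out, the 1 being miR9670-1-5p without heat replicate 2 at 1 DAT (adjusted p 0.0447, and 0.0447 to 0.374 over the libraries left out). Of 1686 alternative values in all, 1648 were kept and 36 changed sign. Kept means the same direction and side of the threshold, or a similar number for counts of members called, which have no direction. Alternatives other than leaving a library out numbered 342, of which 332 were kept and 10 changed sign. Many of the others left out a library of another day, which hardly moves a comparison within a day. The cause of the changes of sign was not tested. With library totals only, the log2 fold change became 0.0284 for miR9670 summed at 1 DAT, and at 4 DAT -0.0262 for miR9669 summed, -0.0269 for miR9669-1.1-5p, -0.0246 for miR9669-1.2-5p, -0.0382 for miR9669-1.3-5p and -0.151 for miR9670-1-5p. For miR9669-1.3-5p at 1 DAT it became 0.0255 with RLE factors, 0.0191 with DESeq2 and 0.0369 within the 8 libraries of that day. Its share at 4 DAT became -0.0133 as a log2 ratio. With each library left out in turn, the log2 fold change ranged from -0.0278 to 0.709 for miR9664 summed at 4 DAT, -0.0715 to 0.757 for miR9664-1-5p at 4 DAT, -0.0172 to 0.439 for miR9669-1.2-5p at 4 DAT, -0.260 to 0.178 and -0.109 to 0.315 for miR9669-1.3-5p at 1 and 4 DAT, -0.0150 to 0.241 and -0.183 to 0.0704 for miR9670 summed at 0 and 1 DAT, -0.0639 to 0.181 for miR9670-1-5p at 4 DAT and -0.299 to 0.103 for miR9670-2.2-5p at 4 DAT. Differences in share, in percentage points, ranged from -0.161 to 0.0287 and -0.106 to 0.0867 for miR9669-1.3-5p at 1 and 4 DAT and from -0.408 to 0.491 for the 21-nt form at 4 DAT.

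With a replicate block, 0 members were called in every comparison, and the tags called in all were 38 in place of 35 at 0 DAT, 18 in place of 23 at 1 DAT, 0 at 4 DAT and 45 over the 3 days together. Every library correlated best with its own number at 1 DAT (4 of 4), in 3 of 4 pairs at 4 DAT and in 1 of 4 at 0 DAT. The tags called in all also moved with other settings. A mean count of at least 20, which removes miR9669-1.3-5p and leaves 122 tags, gave 19 at 0 DAT, 11 at 1 DAT and 26 over the 3 days, library totals gave 5 at 1 DAT and 24 over the 3 days, and the libraries of 1 DAT alone gave 1. At 4 DAT, DESeq2 gave 4, the likelihood ratio test 3 and the libraries of that day 1. DESeq2 gave 19 in place of 11 for 4 against 0 DAT in heat, and 7 in place of 4 for 1 against 0 DAT, where the likelihood ratio test gave 9. For the change of the heat effect the counts were 1 to 9 in place of 5 from 0 to 1 DAT and 1 to 7 in place of 2 from 0 to 4 DAT, and for family sums 1 to 4 in place of 2 at 1 DAT and 0 to 2 at 4 DAT.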
